A study of Mus musculus with 18 samples.

Results

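The limb identity genes described here are 7 genes for transcription factors, taken as a list: Pitx1 and the T-box genes Tbx2, Tbx3, Tbx4, Tbx5, Tbx15 and Tbx18. They are 7 of 49184 genes for which the deposited files held transcripts, and all 7 passed the filter on low counts. Their levels were followed in mouse knee cartilage after rupture of the anterior cruciate ligament (ACL), an injury that leads to post-traumatic osteoarthritis. The sequencing covered 18 libraries of total RNA from femoral condyle cartilage of 12-week-old male C57Bl/6J mice, with 6 libraries from naive mice and 3 each from the injured and the contralateral knee at day 1 and at day 7. The right knee was ruptured by a single 12 N load, and the unloaded left knee was the contralateral control. All mice were wild type, and the injured mice also received buprenorphine, so that the contralateral knees share the drug, the anaesthesia and the circulation of the injured animal. Each library pooled cartilage of several mice. The study's supplement gives 2 mice per library at day 1, 4 at day 7 and 6 naive mice in all with left and right knees pooled apart, while the series text states pools of 4 mice throughout. All naive libraries carry a day 7 label, so day 1 groups are set against naive mice of another day. Libraries of the naive group can also share mice, and the p-values measure the spread between libraries.

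T-box proteins bind DNA through a shared domain, the T-box, and Pitx1 binds through a homeodomain. In the embryo Pitx1 and Tbx4 are expressed in the hind limb bud, and Pitx1 acts upstream of Tbx4, whereas Tbx5 is expressed in the fore limb bud and is needed for its outgrowth. Tbx2 and Tbx3 are repressors at the limb margins and in many organs, and Tbx15 and Tbx18 are repressors in limb, skeletal and mural cell precursors. The knee is a hind limb joint, so both a hind limb gene and a fore limb gene are on the list.

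The genes lie at 5 places of the mouse genome (GRCm38). Tbx2 (11:85832551-85841948, plus strand) and Tbx4 (11:85886422-85916097, plus strand) are neighbours on chromosome 11, with starts 53.9 kb apart. Tbx3 (5:119670669-119684724, plus strand) and Tbx5 (5:119832668-119885219, plus strand) are neighbours on chromosome 5, with starts 162 kb apart. Tbx15 (3:99240381-99354259, plus strand), Tbx18 (9:87702800-87731260, minus strand) and Pitx1 (13:55825051-55836192, minus strand) stand alone. Each of the adjacent pairs joins a repressor gene (Tbx2 or Tbx3) to an activator gene of limb outgrowth (Tbx4 or Tbx5).

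RefSeq promoter windows (GRCm38.p6) were at hand for 2 of the 7 genes, and both belong to genes that were higher at day 7 after injury. Each window runs from 250 bases before the annotated start to 50 bases after it and is shown 5′ to 3′ on the strand of the gene. The Tbx4 window lies at chr11:85896515-85896814 on the plus strand, and the Tbx18 window at chr9:87731211-87731510 on the minus strand. Capitals mark TTTATA, the reverse complement of TATAAA, in the Tbx4 window and ATTGG, the reverse complement of CCAAT, in the Tbx18 window.
Tbx4: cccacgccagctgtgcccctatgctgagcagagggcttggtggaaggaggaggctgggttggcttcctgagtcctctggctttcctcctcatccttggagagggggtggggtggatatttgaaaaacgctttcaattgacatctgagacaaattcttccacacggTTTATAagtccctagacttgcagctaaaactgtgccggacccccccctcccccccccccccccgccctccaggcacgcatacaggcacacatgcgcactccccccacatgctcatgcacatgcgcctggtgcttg
Tbx18: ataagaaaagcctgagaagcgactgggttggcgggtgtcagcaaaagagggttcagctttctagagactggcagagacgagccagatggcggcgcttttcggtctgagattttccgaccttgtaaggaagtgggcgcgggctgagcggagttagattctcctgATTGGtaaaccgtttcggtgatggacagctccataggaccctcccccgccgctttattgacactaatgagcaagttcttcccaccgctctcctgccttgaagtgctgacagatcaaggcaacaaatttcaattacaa
Both strands were searched for TAATCC, a sequence bound by Pitx proteins, and for AGGTGTGA, a T-box site. TAATCC was present in 7.06% and AGGTGTGA in 1.28% of the 32851 mouse windows, and neither Tbx4's nor Tbx18's window held either. TATAAA, present in 13.6% of the windows, and CCAAT, present in 37.4%, were searched after the sequences had been read. The match in Tbx4 begins 85 bases and that in Tbx18 begins 87 bases before the annotated start. The Tbx4 window surrounds the start of the transcript Tbx4-202, which carried 30.9% of the gene's estimated counts.

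Levels of the 7 were compared with each other in TPM, which divides each transcript's reads by its length and scales them to a fixed total per library. In naive cartilage Tbx15 was the most abundant of the 7 at 4.44 ± 0.963 TPM (SD, n = 6), higher than 76.0% of the 33702 genes with a mean above 0. Tbx2 followed at 1.81 ± 0.242 TPM, and the ranges of Tbx15, Tbx2 and the next gene did not overlap. The remaining 5 genes lay below 1 TPM on average and overlapped with their neighbours in the order. Pitx1 was at 0.921 ± 0.200 TPM, Tbx18 at 0.686 ± 0.182, Tbx3 at 0.611 ± 0.108, Tbx5 at 0.499 ± 0.133 and Tbx4 at 0.347 ± 0.0698 (SD, n = 6 for each). The fore limb gene Tbx5 was thus detected in hind limb cartilage, with 25 to 96 estimated counts in every library, and its TPM exceeded that of Tbx4 in 6 of 6 naive libraries.

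Between libraries, levels are given as CPM, counts scaled to a common library total with TMM factors and not corrected for length, since TPM also moves with the few genes that take most of a library. The first day 7 contralateral library stands apart in this respect. Its 10 genes with the most counts held 42.5% of the total, against 16.6% to 29.8% in the 17 other libraries, and it listed Tbx15 at 1.06 TPM but 13.7 CPM. How far those 10 genes account for the low TPM was not tested. For comparisons with the day 7 contralateral group, values without this library are given too.

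The scale matters for how far the groups stand apart. On the TPM scale the 3 day 7 injured libraries lay above the 15 others for Tbx18 alone (at least 1.59 against at most 1.41 TPM). For Pitx1 the lowest day 7 injured library (1.72 TPM) was under the highest of the others (1.75), as it was for Tbx4 (0.493 against 0.710) and Tbx15 (5.52 against 10.5). Statements below that groups do not overlap therefore hold for CPM.

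The libraries are labelled cartilage and chondrocyte, and all 12 chondrocyte markers listed were detected in them, with the highest CPM for Col2a1. They were not chondrocytes alone. Haemoglobin and other erythroid genes summed to between 16608 and 64629 CPM, skeletal muscle genes to between 3592 and 16488 CPM and marrow myeloid genes to between 7522 and 15357 CPM. In bulk RNA fewer cells of a type and less RNA per cell cannot be told apart, and this holds for every level below.

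Pitx1, the homeodomain factor of the hind limb, and Tbx18 had the highest fold changes of the 7 against naive libraries. The CPM of Pitx1 in the naive libraries ran from 3.0 to 4.98 with a median of 4.12. The day 1 contralateral libraries held 3.08, 3.28 and 4.45, and the day 1 injured libraries 5.13, 3.53 and 4.52. At day 7 the contralateral libraries held 5.46, 2.49 and 3.81, and the injured libraries 9.59, 11.1 and 14.9. The 3 day 7 injured libraries were above all 15 others, and the third was the highest. Against naive libraries Pitx1 was 2.99-fold higher at day 7 (log2 fold change 1.58 ± 0.18 SE, FDR = 9.25e-06, edgeR quasi-likelihood test).

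Tbx4, the T-box gene of the hind limb, had the lowest mean TPM of the 7 in naive libraries. Its naive libraries ran from 1.39 to 2.63 CPM with a median of 2.01. At day 1 it stood at 2.08, 1.77 and 1.51 CPM in contralateral and at 1.82, 1.81 and 2.28 CPM in injured libraries. At day 7 it stood at 1.48, 1.38 and 1.77 CPM in contralateral and at 4.04, 4.38 and 4.84 CPM in injured libraries. No library of another group reached the day 7 injured values, which rest on 70 to 105 estimated counts each. The rise over naive libraries was 2.26-fold (log2 fold change 1.17 ± 0.18 SE, FDR = 0.000133).

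Tbx18, a repressor gene known from the mesenchyme of the limb, the epicardium and mural cells of vessels, rose in the same libraries. Naive libraries ran from 4.03 to 6.74 CPM with a median of 6.09, and the 6 libraries of day 1 from 3.76 to 7.63. The day 7 contralateral libraries held 5.62, 5.60 and 5.68 CPM, and the day 7 injured libraries 15.7, 16.8 and 19.3. Again the day 7 injured libraries did not overlap with any other. Tbx18 was 3.07-fold higher than in naive libraries (log2 fold change 1.62 ± 0.18 SE, FDR = 6.20e-06).

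Tbx15, a repressor gene of dermal, skeletal and muscle precursors, was the most abundant of the 7 in naive libraries and had the smallest of the 4 rises. Its CPM ran from 19.7 to 30.4 in naive libraries with a median of 27.6. Day 1 libraries held 28.2, 22.2 and 20.8 in the contralateral and 27.1, 22.8 and 35.6 in the injured group. Day 7 contralateral libraries held 13.7, 21.2 and 22.5, the lowest being the library that stands apart, and day 7 injured libraries held 43.7, 41.4 and 57.3. The day 7 injured values were above all others, and the third day 1 injured library came closest. The difference from naive libraries was 1.83-fold (log2 fold change 0.87 ± 0.16 SE, FDR = 0.000662).

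Tbx2, Tbx3 and Tbx5 did not pass the test in any comparison. Tbx2 ran from 10.4 to 14.7 CPM in naive libraries, and its day 7 injured libraries at 12.9, 11.1 and 12.5 CPM lay within that range (log2 fold change 0.01 ± 0.14 SE, FDR = 0.980). Its highest values, 17.9 and 17.4 CPM, were in the first day 7 contralateral and the third day 1 injured library. Tbx3 ran from 2.89 to 6.83 CPM in naive libraries and was at 5.27, 5.82 and 6.91 CPM in day 7 injured libraries (log2 fold change 0.47 ± 0.28 SE, FDR = 0.224). Tbx5 ran from 2.26 to 3.55 CPM in naive libraries and was at 3.0, 3.13 and 4.05 CPM in day 7 injured libraries (log2 fold change 0.32 ± 0.20 SE, FDR = 0.238). For both the groups overlapped, with the highest library of all 18 in the day 7 injured group.

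**Figure D1:**
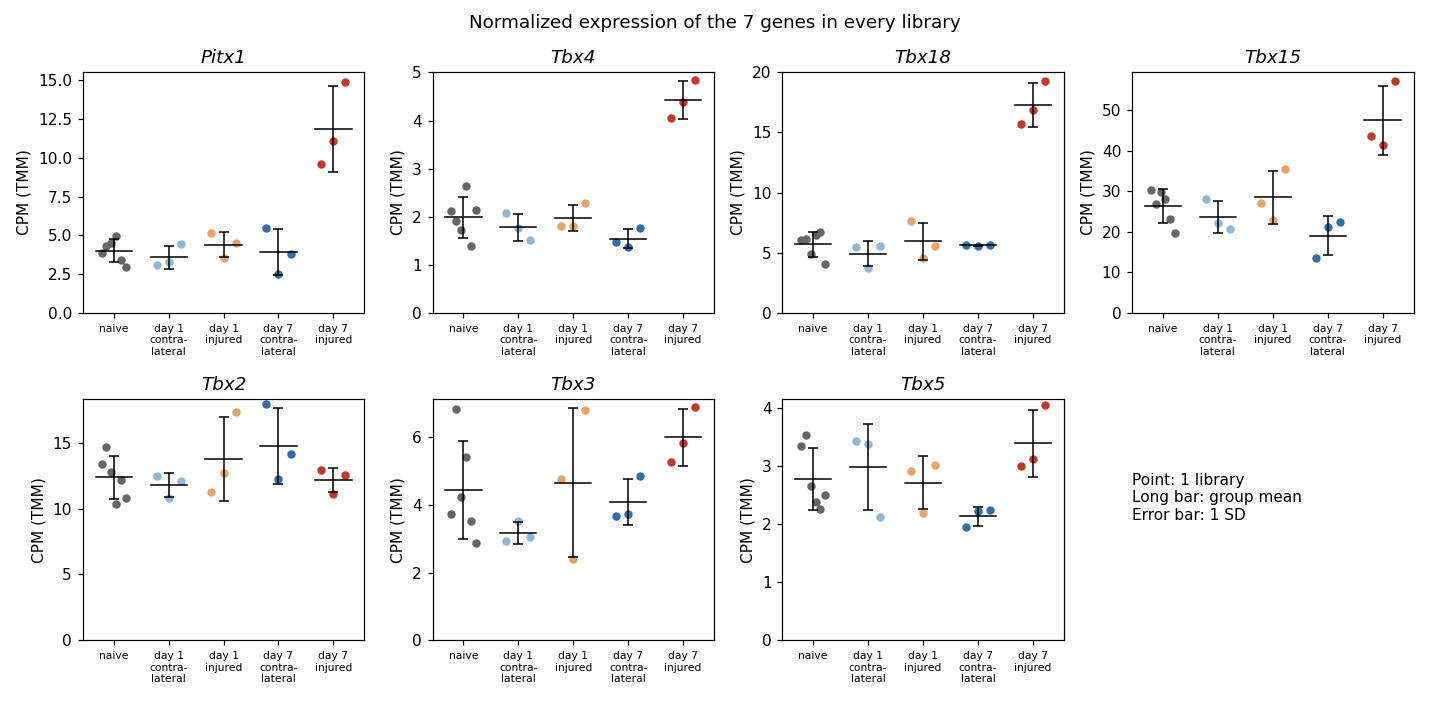
CPM (TMM normalized, linear axes from 0) of the 7 genes in each of the 18 libraries by group; points are libraries, long bars group means and error bars 1 SD. The 3 day 7 injured libraries lie above the 15 others for Pitx1, Tbx4, Tbx18 and Tbx15 (for Pitx1 9.59 to 14.9 against 2.49 to 5.46), and the groups overlap for Tbx2, Tbx3 and Tbx5. The share of all genes separated in this way was not counted.

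Compared with naive libraries, then, 4 of the 7 genes were called higher at day 7 and none lower, which required an FDR no higher than 0.05 and a change of 1.5-fold or more. Of all 21129 genes tested 10.4% were called higher and 6.11% lower, and the median log2 fold change was 0.87 over the 7 genes and -0.04 over all genes. The day 7 injured libraries were all above the naive libraries for 4 of the 7 genes and for 17.3% of all genes.

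The injured knee was next set against the contralateral knee of day 7. The same 4 genes were called higher, against 9.33% of 21262 genes. Log2 fold changes were 1.63 ± 0.26 SE for Pitx1 (FDR = 0.000238), 1.63 ± 0.21 for Tbx18 (FDR = 2.80e-05), 1.52 ± 0.22 for Tbx4 (FDR = 9.08e-05) and 1.32 ± 0.21 for Tbx15 (FDR = 0.000238). Without the first contralateral library they were 1.94, 1.65, 1.51 and 1.15, with FDRs from 9.09e-05 to 0.000907. Tbx5 came close to the threshold, with a log2 fold change of 0.67 ± 0.23 SE and an FDR of 0.0544. Its day 7 injured libraries lay at 3.0 to 4.05 CPM, above the contralateral ones at 1.95 to 2.25, and without the third day 1 contralateral library, which enters through the shared estimate of spread, its FDR was 0.0393. Tbx3 (0.55 ± 0.32 SE, FDR = 0.255) and Tbx2 (-0.26 ± 0.17 SE, FDR = 0.324) did not pass. Without the first day 7 contralateral library Tbx5 was at 0.64 (FDR = 0.103), Tbx3 at 0.51 (FDR = 0.387) and Tbx2 at -0.08 (FDR = 0.805).

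Time was addressed by the injured knees of day 7 against those of day 1. Pitx1 (log2 fold change 1.46 ± 0.22 SE, FDR = 0.000231), Tbx18 (1.56 ± 0.21, FDR = 0.000113), Tbx4 (1.19 ± 0.21, FDR = 0.000892) and Tbx15 (0.76 ± 0.19, FDR = 0.00842) were again called higher, against 9.04% of all genes. Tbx5 (0.35 ± 0.23 SE), Tbx3 (0.40 ± 0.32) and Tbx2 (-0.15 ± 0.16) were not, with FDRs from 0.278 to 0.500. These 3 comparisons share the day 7 injured libraries and are not independent of each other. On the TPM scale the mean of Tbx15 was 7.12 in day 1 injured and 6.98 in day 7 injured libraries, so its rise was absent there. Tbx4 was at 0.528 and 0.627 TPM, Pitx1 at 1.52 and 2.27, and Tbx18 at 1.08 and 1.72 in the same groups.

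**Figure D2:**
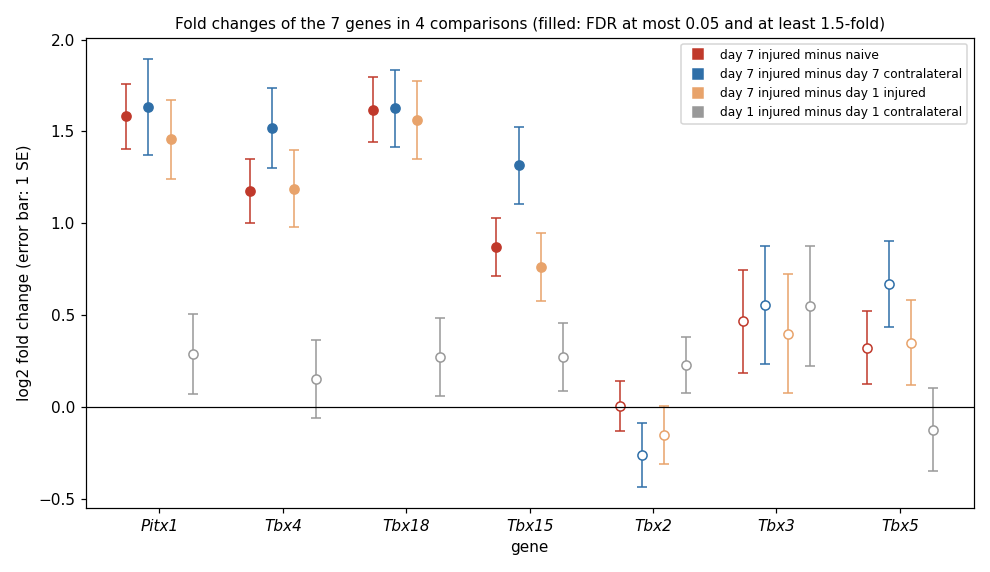
Log2 fold change of each gene in 4 comparisons (colours); error bars are 1 SE and filled points are called (FDR no higher than 0.05, change of 1.5-fold or more). Pitx1, Tbx4, Tbx18 and Tbx15 are called in the 3 comparisons with day 7 injured libraries, with values from 0.76 to 1.63, and no gene is called at day 1.

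At day 1 none of the 7 genes passed the test. Between injured and contralateral knees of day 1 the log2 fold changes ran from -0.13 for Tbx5 to 0.55 for Tbx3 (lowest FDR 0.786), and between day 1 injured and naive libraries from -0.03 for Tbx5 to 0.16 for Tbx2 (lowest FDR 0.987). edgeR called no gene in these comparisons (0% of 21129), with 1383 and 959 genes at an unadjusted p of at most 0.05 and none of the 7 among them. limma-voom called no gene either, and DESeq2 called none between the knees of day 1 and 12 lower of the 2459 genes to which it gave an adjusted p between day 1 injured and naive libraries, where the 7 had none (lowest unadjusted p 0.261). Between day 1 contralateral and naive libraries none of the 7 and 0% of all genes were called, and log2 fold changes ran from -0.48 for Tbx3 to 0.10 for Tbx5 (554 genes and none of the 7 at an unadjusted p of at most 0.05; DESeq2 and limma-voom called no gene).

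The contralateral knee of day 7 gave small values against naive libraries for Pitx1 and Tbx18, with log2 fold changes of -0.07 ± 0.23 SE and -0.03 ± 0.18, whose signs turned under some settings (for Tbx18 0.42 with an offset for transcript length, FDR = 0.481). Tbx15 was the lowest at -0.46 ± 0.18 SE (unadjusted p = 0.0225, FDR = 0.274) and at -0.28 without the library that stands apart, and Tbx2 the highest at 0.25. Without that library Pitx1 was at -0.35, Tbx4 at -0.34, Tbx5 at -0.31, Tbx3 at -0.04, Tbx18 at -0.03 and Tbx2 at 0.09 (lowest FDR 0.921). edgeR called none of the 7 and 0% of all genes, limma-voom called no gene, DESeq2 called 18 genes higher and 12 lower with none of the 7 among them, and 3220 genes and 1 of the 7 were at an unadjusted p of at most 0.05. Against day 1 contralateral libraries none of the 7 and 0.0188% of all genes were called by edgeR (4 genes), DESeq2 called 71 higher and 10 lower and limma-voom none, again without any of the 7, and values ran from -0.46 for Tbx5 to 0.38 for Tbx3, or from -0.41 to 0.44 for the same genes without the library that stands apart.

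Whether the effect of injury itself changed from day 1 to day 7 was tested as a difference of differences. Tbx4 (1.36 ± 0.31 SE on the log2 scale, FDR = 0.0157), Tbx18 (1.35 ± 0.29, FDR = 0.0122) and Pitx1 (1.34 ± 0.36, FDR = 0.0475) passed, against 3.53% of all genes called higher. Tbx15 (1.04 ± 0.29 SE, FDR = 0.0566) was just outside the threshold and passed with DESeq2 (1.03, FDR = 0.0177), without the third day 1 injured library (1.23, FDR = 0.0326) and without the last naive library (1.04, FDR = 0.0442). Tbx5 (0.79 ± 0.32, FDR = 0.214), Tbx2 (-0.49 ± 0.24, FDR = 0.325) and Tbx3 (0.00, FDR = 1.00) did not pass. The call for Pitx1 was lost under most alternatives, with an FDR of 0.0588 under DESeq2's size factors and 0.111 with an offset for transcript length, and that for Tbx18 was lost with the offset (0.83, FDR = 0.433). The call for Tbx4 was lost without the first day 1 injured (FDR = 0.0549), the second day 7 contralateral (FDR = 0.0532) or the third day 7 injured library (FDR = 0.0546), and that for Pitx1 without most single libraries, with FDRs up to 0.170. Without the first day 7 contralateral library the values were 1.36 for Tbx4, 1.37 for Tbx18 and 1.65 for Pitx1, with FDRs from 0.00993 to 0.0202. The others were then at 0.88 for Tbx15 (FDR = 0.0758), 0.76 for Tbx5 (FDR = 0.233), -0.31 for Tbx2 (FDR = 0.522) and -0.04 for Tbx3 (FDR = 0.983).

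The hind limb gene and the fore limb gene can be compared within a library. In naive libraries the log2 ratio of Tbx4 to Tbx5 TPM, with 0.1 added to each, was -0.41 ± 0.25 (SD, n = 6) and was below 0 in 6 of 6 libraries. It was also below 0 in every library of day 1 and of the day 7 contralateral group, with means of -0.66 ± 0.45 in day 1 contralateral, -0.40 ± 0.20 in day 1 injured and -0.35 ± 0.25 in day 7 contralateral libraries (SD, n = 3 each). Without the library that stands apart the day 7 contralateral values were -0.61 and -0.33. On the CPM scale, which is not corrected for length, Tbx4 was above Tbx5 in the fourth naive library (2.63 against 2.38 CPM). These values rest on 75 and 68 estimated counts. In the day 7 injured libraries the log2 ratio of TPM was 0.32, 0.52 and 0.26. In TPM Tbx4 thus exceeded Tbx5 in these 3 libraries and in none of the 15 others. The difference from naive libraries was 0.78 (exact permutation test, two-sided, p = 0.0119, the smallest value 3 against 6 libraries allow; 0.0238 adjusted over the 2 ratios tested), and 0.30 with 1 in place of 0.1 added to each TPM. The log2 ratio of Pitx1 to Tbx4 moved by 0.50, from 1.18 ± 0.29 (SD, n = 6) to 1.69 ± 0.15 (SD, n = 3; exact permutation test, p = 0.0357). The call did not hold with CPM in place of TPM (0.39, exact permutation test, p = 0.119), nor without any 1 of the day 7 injured libraries. With a library left out the value was still 0.41 to 0.58. Fewer libraries allow fewer arrangements, so these losses follow partly from the design.

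**Figure D3:**
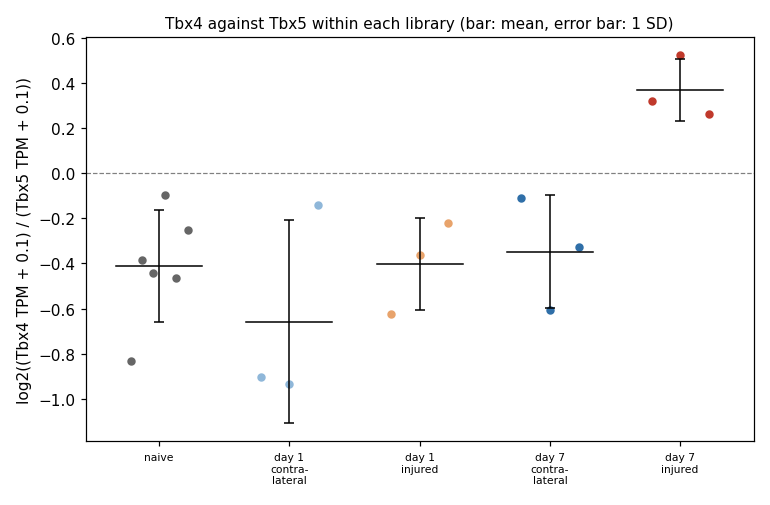
Log2 ratio of Tbx4 to Tbx5 TPM, each with 0.1 added, in every library by group (points), with the mean and 1 SD (bars); the dashed line marks equal levels. The 3 day 7 injured libraries lie at 0.26 to 0.52 and all 15 others lie below 0.

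Single transcripts carried most of the counts of 5 genes. Tbx2 has a single transcript in the files, Tbx2-201. Tbx15-201 held 98.5%, Tbx18-201 99.4% and Pitx1-201 98.8% of the estimated counts of their genes over all libraries, and Tbx5 was divided between Tbx5-201 (88.5%) and Tbx5-202 (11.1%). Tbx4 was divided between Tbx4-203 (52.2%), Tbx4-202 (30.9%) and Tbx4-201 (16.9%), and Tbx3 between Tbx3-203 (51.2%), Tbx3-201 (31.6%) and Tbx3-202 (11.1%). In Tbx4 and Tbx3 the shares of a transcript swung widely between libraries of a group, from 0% to 100% for Tbx4-203 over the 18 libraries, on few reads. The share of the main transcript passed no test between day 7 injured and naive libraries in the 6 genes with several transcripts (exact permutation tests, lowest p = 0.0714 for Tbx3-203 at 78.0% ± 19.2 against 46.0% ± 20.4, SD, n = 3 and 6; 0.429 after adjustment over the 6). Tbx3-201 was listed at 0 in the 3 day 7 injured libraries against 44.4% ± 27.9 in naive ones (SD, n = 6), a pair of values singled out after they were seen and not tested.

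Reads at these genes can belong to others. Exons of Tbx3 share 115 bases with the antisense gene Tbx3os1, and exons of Pitx1 share 165 bases with the antisense gene Gm47071. The library kit keeps the strand, but whether the counting used it is not given in the sources used here. Gm47071 held 88 to 318 estimated counts per library, and its log2 fold change at day 7 against naive libraries was -0.45 (FDR = 0.00991, under the fold limit), while Pitx1 was higher. Tbx3os1 held 5 to 55 counts, with a log2 fold change of -0.71 (FDR = 0.0825). Tbx18 shares 970 bases of exon with D030062O11Rik on the opposite strand, which had no transcript among those counted. Reads of that gene could therefore not be given counts of their own. Pitx1 shares 108 bases with Gm28760, which had at most 2 counts.

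The neighbours of the 7 on the chromosome gave 1 call in each direction. Of 39 genes other than the 7 whose start lies within 250 kb of a member's start, 18 could be tested, and between day 7 injured and naive libraries 1 was called higher and 1 lower (5.56% each, beside 10.4% higher and 6.11% lower of all genes), with a median log2 fold change of -0.29. Both lie near Pitx1. B4galt7, a glycosyltransferase that builds the linker of proteoglycan chains, went from 10.3 ± 1.29 CPM (SD, n = 6) to 15.7 ± 0.639 (SD, n = 3; log2 fold change 0.62 ± 0.11 SE), and the antisense gene Gm15911 from 0.519 ± 0.214 CPM (SD, n = 6) to 0.211 ± 0.112 (SD, n = 3; -1.31 ± 0.44). Tbx4 rose while Tbx2, 53.9 kb away, stayed within the naive range, and the pair Tbx3 and Tbx5 had no call.

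The wider T-box family was set beside the 7. Of 11 other T-box genes, 6 could be tested and none was called in the 3 comparisons with day 7 injured libraries. Of all genes 10.4% were called higher against naive, 9.33% against day 7 contralateral and 9.04% against day 1 injured libraries. With so few genes tested, the lack of calls does not set the family apart from all genes. Their median log2 fold change was 0.14 against naive libraries. Among the tested genes were Eomes and Tbx21, T-box genes of lymphocytes, and Mga, a partner of Max that also holds a T-box. Mga was at 116 ± 5.23 CPM in naive libraries (SD, n = 6) and was below the FDR limit but under the fold limit against them (0.21, FDR = 0.0231). T (brachyury) had at most 1 count in any library. The Groucho corepressors Tle1 to Tle4, partners of Tbx15 and Tbx18, gave no call in 4 tested genes, with a median of -0.08. Of these, 2 were below the FDR limit but under the fold limit against naive libraries, in opposite directions. Tle4 had a log2 fold change of -0.40 (FDR = 0.00163) and Tle1 of 0.28 (FDR = 0.0362). Against day 7 contralateral libraries the same was so of Tle4 (-0.58, FDR = 0.000242), Tle1 (0.42, FDR = 0.0158) and Tle3 (-0.30, FDR = 0.0427).

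Other transcription factors of the limb bud were listed as well. Of 36 listed genes 31 could be tested, and 15 were called higher and none lower at day 7 against naive libraries, beside 10.4% and 6.11% of all genes, with a median log2 fold change of 0.65. The largest were Prrx2, a homeodomain factor of limb mesenchyme, from 1.89 ± 1.08 CPM (SD, n = 6) to 12.3 ± 1.58 (SD, n = 3; log2 fold change 2.70 ± 0.36 SE), and Osr2, a zinc finger factor of synovial joints, from 2.03 ± 0.782 CPM to 11.8 ± 4.84 (2.56 ± 0.28). Emx2, a homeodomain factor needed for the shoulder blade, had a log2 fold change of 1.89 ± 0.41, and Tfap2a, an AP-2 factor, 1.65 ± 0.32. Prrx1, the paralogue of Prrx2, had the highest CPM of the list, a scale not corrected for gene length, at 63.0 ± 10.4 in naive and 194 ± 40.8 CPM in day 7 injured libraries (1.64 ± 0.14). Gli3, the Hedgehog effector that patterns the digits, stood at 1.33 ± 0.19 and Shox2, a factor of the proximal limb skeleton, at 0.79 ± 0.15. Against day 7 contralateral libraries 14 of the 31 were called higher (beside 9.33% of all genes), and against day 1 injured libraries 12 (beside 9.04%).

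Posterior Hox genes are active in the hind limb and along the limb axis. Of 13 listed, 9 could be tested and 7 were called higher at day 7 against naive libraries (beside 10.4% of all genes), with a median log2 fold change of 0.91. Hoxa10 had the largest value at 1.16 ± 0.13 SE (6.73 ± 0.764 CPM in naive, SD, n = 6, and 14.8 ± 0.825 in day 7 injured libraries, SD, n = 3), followed by Hoxd10 at 1.09, Hoxa11 at 1.06, Hoxc10 at 0.94, Hoxd9 at 0.91, Hoxc9 at 0.76 and Hoxa9 at 0.75. Hoxc12, Hoxd12 and Hoxd13, genes of the most distal limb and trunk, had at most 2, 1 and 1 counts in any library. Against day 7 contralateral libraries 5 of the 9 were called higher (beside 9.33% of all genes), and against day 1 injured libraries 2 (beside 9.04%). Of the anterior Hoxc genes, which are expressed toward the fore limb, Hoxc6 was called higher (0.95 ± 0.15 SE, from 2.41 ± 0.271 to 4.58 ± 1.05 CPM, SD, n = 6 and 3), and Hoxc4 (0.33) and Hoxc5 (-0.02) were not.

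Signals of the limb bud were listed next. Of 19 genes 14 could be tested and 4 were called higher and none lower at day 7 against naive libraries (beside 10.4% and 6.11% of all genes), with a median log2 fold change of 0.33. These were Cyp26b1, which breaks down retinoic acid (1.41 ± 0.34 SE), Wnt5a, a Wnt ligand of limb outgrowth (1.04 ± 0.15), Rarg, a retinoic acid receptor of cartilage (0.89 ± 0.10), and Fgfr1, an Fgf receptor (0.83 ± 0.10). Against day 7 contralateral libraries 3 were called higher (beside 9.33% of all genes), and Rarg was not (0.51, FDR = 0.0864). Against day 1 injured libraries Wnt5a, Rarg and Fgfr1 were called higher (beside 9.04% of all genes), and the ligand genes Fgf9 (-1.11 ± 0.38 SE) and Bmp7 (-0.81 ± 0.20) lower (beside 6.38%). Fgf10, which in the embryo acts downstream of Tbx4 and Tbx5, was at 1.82 ± 0.925 CPM in naive and 1.47 ± 0.0949 in day 7 injured libraries (SD, n = 6 and 3; log2 fold change -0.28 ± 0.52 SE) and was not called. Fgf4 and Wnt7a had at most 1 count. Of 8 genes known as targets of Tbx2 or Tbx3 repression, 7 could be tested and 2 were called higher (beside 10.4% of all genes), the cell cycle inhibitor Cdkn1a (1.01 ± 0.20 SE) and the gap junction gene Gja1 (1.20 ± 0.14), with a median of 0.06.

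**Figure D4:**
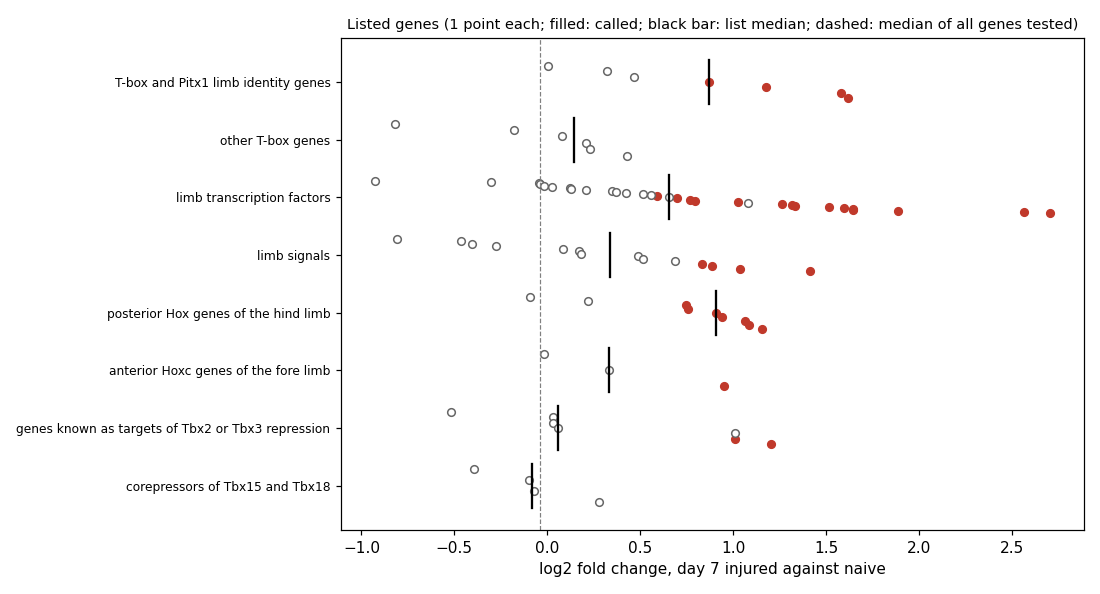
Log2 fold change between day 7 injured and naive libraries of every tested gene in the 7 and in 7 lists; each point is a gene, filled points are called, black bars are list medians and the dashed line is the median of all genes tested. Medians are 0.87 for the 7 genes, 0.65 for limb transcription factors and 0.91 for posterior Hox genes, and lie between -0.08 and 0.33 for the other 5 lists.

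Markers of mesenchymal cell types moved in the same libraries as Pitx1, Tbx4, Tbx15 and Tbx18. Of 10 pericyte and smooth muscle markers 6 were called higher at day 7 against naive libraries, where 10.4% of all genes were called higher and 6.11% lower, and their summed level, with the largest CPM from Rgs5, was 609 ± 68.1 CPM in naive (SD, n = 6) and 978, 1054 and 1226 CPM in day 7 injured libraries. These 10 markers had a median of 0.96 on the log2 scale against naive libraries. Among them Notch3 (0.53, FDR = 0.0106) stayed under the fold limit. Kcnj8 (0.33), Abcc9 (-0.01) and Myh11 (-0.13) were not called either. All 5 tendon markers were called higher, with a median log2 fold change of 1.99 and a sum, with the largest CPM from Fmod, of 525 ± 154 CPM in naive and 1677, 1744 and 2210 CPM in day 7 injured libraries. Of 9 synovial fibroblast markers 4 were called higher (Pdgfra, Thy1, Cd34 and Dkk3), with a median log2 fold change over the 9 of 0.53 against naive and 0.18 against day 7 contralateral libraries, and the sum went from 384 ± 65.3 CPM (SD, n = 6) to 753, 883 and 968 CPM. Pdgfra gave the most CPM to the sum in naive libraries at 101 CPM and Dkk3 in day 7 injured libraries, where Dkk3 was at 265 ± 57.4 CPM (SD, n = 3) against 17.6 ± 3.57 in naive ones (SD, n = 6) and Pdgfra at 248 ± 40.7. The other 5 were not called, among them Clic5 (-0.25) and Dpp4 (-0.08). The summed CPM of each of these lists was higher in the day 7 injured libraries than in all 15 others, as was the CPM of the 4 genes. This did not hold for every marker, for example not for Myh11 and Clic5. The part of these cell types in the results was not tested.

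The counts of the remaining lists stand beside the same 10.4% higher and 6.11% lower of all genes. Of 12 chondrocyte markers Acan, Comp and Sox9 were called higher and Chad lower, with a median of 0.32, and their sum, with the largest CPM from Col2a1, was 6052 ± 1307 CPM in naive (SD, n = 6) and 7588 to 9190 CPM in day 7 injured libraries, and 14092 CPM in the day 7 contralateral library that stands apart. Of 7 endothelial markers Pecam1, Cdh5 and Emcn were called higher, with a sum of 518 ± 34.9 CPM in naive (SD, n = 6) and 578 to 644 CPM in day 7 injured libraries. The endothelial sum was thus also above all 15 others (at most 566 CPM) in the 3 day 7 injured libraries, with a median log2 fold change of 0.57 over the 7 markers. Vwf, which gave the most CPM to the sum, went the other way, from 255 ± 25.0 CPM in naive (SD, n = 6) to 194 ± 11.8 in day 7 injured libraries (SD, n = 3; log2 fold change -0.37, FDR = 0.0271, under the fold limit). Adipocyte (3 of 6 lower, median -1.40), erythroid (4 of 7 lower, -0.60) and marrow myeloid markers (2 of 7 lower, -0.42) had lower medians, and none of 8 skeletal muscle markers was called, with a median of -0.76. Of 8 osteoblast and osteocyte markers 1 was called higher and 2 lower, and no macrophage marker of 6 was called. No marker of any list was at or under 3 counts in every library.

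**Figure D5:**
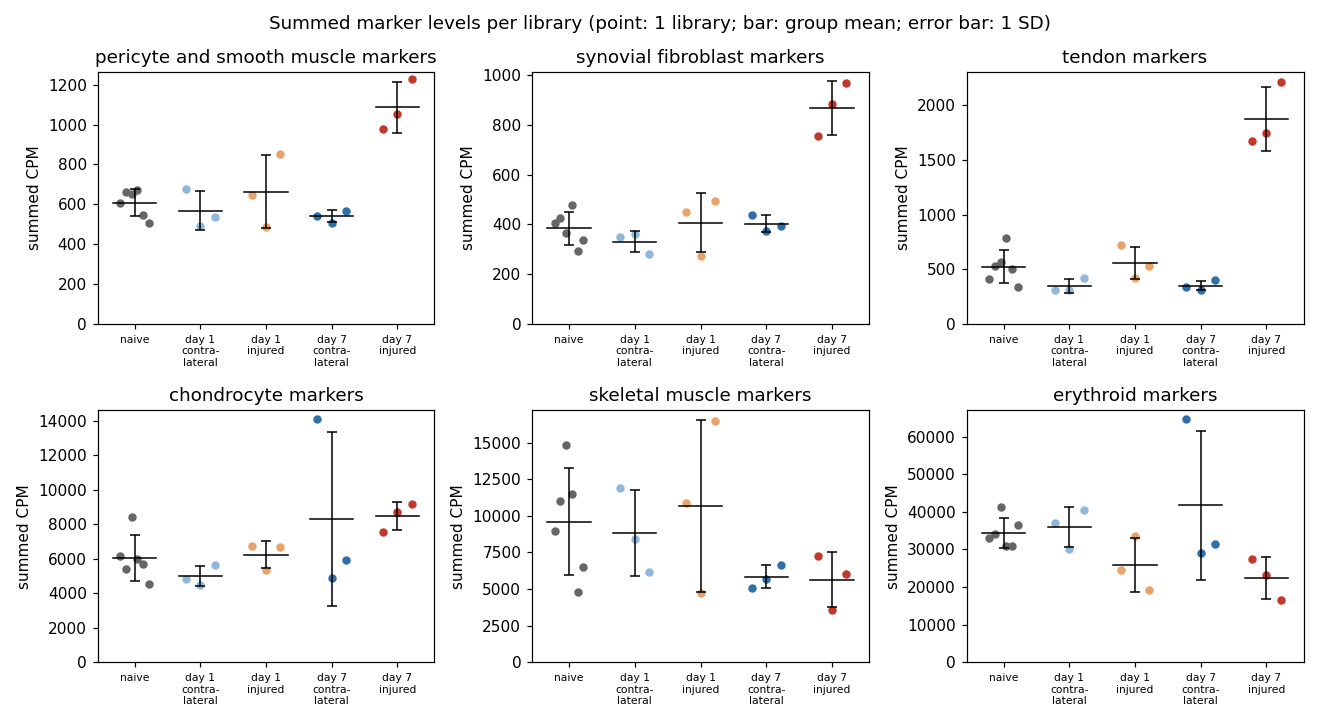
Summed CPM of 6 marker lists in each library by group; points are libraries, bars means and error bars 1 SD, on linear axes from 0. The pericyte, synovial fibroblast and tendon sums are highest in the 3 day 7 injured libraries, whereas the chondrocyte and erythroid sums are highest in 1 day 7 contralateral library.

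Genes of like pattern were sought among 14042 protein-coding genes by the root mean square difference of centred log2 CPM over the 18 libraries. For Pitx1 these were Lpar1, a lysophosphatidic acid receptor (0.13, where the median over all candidates was 0.63), Ltbp3, a TGF-beta binding protein of the matrix (0.14), and Lamc1, a laminin chain (0.17). For Tbx18 they were Mtmr11, Plce1 and Tcaf1 (0.16 to 0.17, median 0.64), for Tbx4 Zc2hc1a, Trim2 and Rhoq (0.12 to 0.14, median 0.49), and for Tbx15 Ptprm, Fermt2 and Six4 (0.13 to 0.15, median 0.51). Tbx2 had Fzd5, Rnpepl1 and Cyb5r1 (0.13 to 0.14, median 0.30), Tbx5 had Zfp14, Hikeshi and Uqcc2 (0.14 to 0.15, median 0.35), and Tbx3 had Astn2, Klf9 and Grb14 (0.20, median 0.46). Among the 7 themselves, Pitx1 and Tbx18 were each other's nearest (0.25), as were Tbx4 and Tbx15 (0.24). Since the genes were picked for likeness, their values are a description.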

How the data were processed

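Total RNA of mouse knee cartilage was sequenced in 18 libraries after removal of ribosomal RNA. After trimming, the authors ran Kallisto against mouse transcripts (GRCm38) and deposited its estimated counts per transcript, TPM values, which the authors scaled by transcript length and library total, and transcript lengths. The submitters' processing notes name Kallisto, DESeq2 and a human build, and the transcript identifiers are those of mouse. The authors removed 1 ACL library for low mapping and did not name it. All 18 libraries were used here, and whether the removed one is among them cannot be told.

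Identifiers without version were matched to GENCODE M21, which gave a gene for 135107 of 137436 transcripts (98.3%). The others held 0.667% to 3.90% of a library. Summing the transcripts' estimated counts gave 49184 genes, rounded to whole counts. Library totals ran from 16074762 to 41794005 per library (median 25465706.5), and few counts limit the precision for Tbx4, Tbx5 and transcript shares.

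Groups came from the treatment labels, which do not say which libraries share mice. In R 4.3.3, edgeR 4.0.16 (quasi-likelihood test) fitted a mean per group with TMM factors, edgeR's filter and Benjamini-Hochberg adjustment, on 18 libraries (21262 genes) where the day 7 contralateral group entered and otherwise on the 15 others (21129 genes). CPM values were scaled with TMM factors over all 18. Ratios and transcript shares were compared by exact permutation of libraries. The test was tried on simulated counts. Alternatives were DESeq2 1.42.0, limma-voom (limma 3.58.1), other size factors, filters, thresholds and libraries, and an offset for transcript length.

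The 7 genes, lists and tests were chosen with earlier results of these data known. Named from the lists were all genes called at day 7 against naive libraries, or where more than 8 were called the 5 of largest change and 3 of highest CPM, and genes at or under 3 counts throughout. Neighbours within 250 kb and the 3 genes nearest in pattern at a mean of at least 1 CPM, on log2(CPM + 0.5), were named likewise. Of markers, counts and sums are given. Some listed genes are not reported here.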

Additional observations from a re-analysis of the deposited data

Results flagged for a closer look

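The effect of injury differed between day 7 and day 1 for 3 of the 7 genes by a test of that difference (edgeR quasi-likelihood test on 18 libraries). Of all 21262 genes 3.53% were called higher in this test. On the log2 scale the difference was 1.36 for Tbx4, 1.35 for Tbx18 and 1.34 for Pitx1. For Tbx4 the injured libraries exceeded the contralateral ones by 1.52 at day 7 and 0.15 at day 1, for Tbx18 by 1.63 and 0.27, and for Pitx1 by 1.63 and 0.29. The call for Pitx1 was lost under most alternatives (FDR = 0.0588 with DESeq2's size factors and 0.111 with an offset for transcript length). Both days compare different mice, and day 1 and day 7 libraries pool different numbers of them by the study's supplement. No naive library stood out from the other 5 for any of the 7 genes by Dixon's test, and groups of 3 were not tested.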

How the results depend on the processing

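Calls of 4 genes in each of the 3 comparisons with day 7 injured libraries, and of none between the other groups, held under all 9 alternatives of test, filter, scaling, threshold and libraries, except that DESeq2 gave the 7 genes no adjusted p between day 1 injured and naive libraries. With a library left out there were 4 calls against naive and against day 1 injured libraries and 4 to 5 against day 7 contralateral ones. The difference between injury effects was less firm: 3 genes were called, 0 at an FDR of at most 0.01, 1 with the length offset, 4 with DESeq2 (Tbx15 added), and 1 to 4 with a library left out (1 without the first day 1 injured, the second day 7 contralateral or the third day 7 injured library). The ratio of Pitx1 to Tbx4 (0.50) lost its call with a pseudocount of 0.01 (0.44), with CPM (0.39) and without any 1 of the 3 day 7 injured libraries or any 1 of 3 naive libraries (replicates 1, 4 and 5), and ran from 0.41 to 0.58 with a library left out. The ratio of Tbx4 to Tbx5 (0.78) kept its direction under these settings, and its call by the unadjusted permutation p. Without a day 7 injured library that call did not hold after adjustment over the 2 ratios. Fewer arrangements then remain, and the ratio of Pitx1 to Tbx4 had lost its own call. The Tbx4 to Tbx5 ratio ran from 0.70 to 0.84 with a library left out. It was 0.93 with a pseudocount of 0.01, 0.30 with a pseudocount of 1 and 0.85 with CPM.

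Of the 63 log2 fold changes of the 7 genes over 9 comparisons, 15 turned sign under at least 1 setting, and none of the 15 was called, in either direction. Tbx2 at day 7 against naive libraries (0.0058) gave -0.0043 with DESeq2's size factors, -0.0052 without the filter, -0.038 with at least 1 CPM in 3 libraries and -0.013 with all libraries fitted. Tbx3 in the difference of injury effects gave 0.12 with limma-voom and 0.010 with the length offset. With a library left out, Tbx2 ran from -0.041 to 0.060 against naive and from -0.30 to 0.031 against day 1 injured libraries, and Tbx3 from -0.31 to 0.37 in the difference of effects. At day 1, Tbx5 ran from -0.33 to 0.0066 between injured and contralateral, from -0.10 to 0.11 between injured and naive and from -0.013 to 0.30 between contralateral and naive libraries, and Tbx2 from -0.030 to 0.30 between injured and naive libraries. In the day 7 contralateral group against naive libraries Tbx18 (-0.03) gave 0.0085 with limma-voom and 0.42 with the length offset, and Tbx3 (-0.11) gave 0.20 with the length offset. With a library left out these ran from -0.11 to 0.029 for Tbx18, from -0.24 to 0.056 for Tbx3 and from -0.35 to 0.19 for Pitx1, and Pitx1 against day 1 contralateral libraries (0.10) from -0.19 to 0.36. The remaining 4 were Tbx3, Tbx4, Tbx15 and Tbx18 between day 1 injured and naive libraries. The cause was not tested.

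No paired analysis was possible because the labels do not say which libraries share mice. Injured and contralateral libraries were therefore fitted as independent. The authors accounted for samples of the same mouse pool with duplicateCorrelation in limma. Depth limits Tbx4 and Tbx5, with 19 to 105 and 25 to 96 counts per library.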
